A study of Homo sapiens with 4 samples.

Results

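The 8 genes described here, VIM, FN1, CAV1, EGFR, TWIST1, SNAI2, ZEB1 and TP63, are markers or regulators of basal and mesenchymal cells. They were looked up in an ATAC-seq peak list from T47D-MTVL cells, which are T47D luminal breast cancer cells with 1 integrated luciferase reporter gene under the MMTV promoter. ATAC-seq marks open chromatin by the cuts of the Tn5 transposase. The study compared cells with an shRNA against multiple linker histone H1 variants (multiH1sh, 2 samples) with cells that carried a random shRNA (RDsh, 2 samples). H1 sits on the nucleosome where the DNA enters and leaves, and the comparison addressed how accessible the DNA was once H1 variants were depleted. The 1 peak list serves all 4 samples. Its track line names RDsh and an shRNA under a name that the labels do not use, taken here to be multiH1sh. The track line does not say which samples went into the list. The deposited name of the list calls it differential for multiH1sh and RDsh. A summit may therefore mark open chromatin or a difference between the 2 groups, and the list does not settle which. It holds no value per sample, so no multiH1sh value can be set against an RDsh value and no spread between replicates can be given. Fold enrichments and p-values of peaks are those of the authors.

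Each line of the list is called a summit (a local maximum of signal within a peak), and lines that share a start and end form a region. Members were the summits that lay in a gene or within 10 kb of either end, with hg19 gene positions given to 1 kb. Distances from a gene start count from these positions. Below 1 kb, the side of the start and the summit nearest to it are therefore approximate. This rule uses no measured value, but it was chosen with earlier results of these data known. The rule gave 90 summits in 63 regions, out of 371521 summits in 197823 regions. All folds were taken against a single background of 2.01 reads, so each fold gives the whole number of reads at its summit. The list starts at 10 reads, and a gene without a summit is therefore one with no listed peak, which does not show closed chromatin.

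Epithelial cells can take on mesenchymal features, lose contact with their neighbours and become motile, a change called the epithelial-mesenchymal transition. Transcription factors of the ZEB, SNAI and TWIST families drive it by repressing epithelial genes, and vimentin and fibronectin are among its classic markers. In the mammary gland the basal layer carries p63 and other markers that the luminal layer lacks, and T47D is a luminal, oestrogen receptor-positive line.

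The starts of these genes differ in base composition, which is shown here for 2 genes with broad listed regions at the start (EGFR and VIM) and 2 with no listed summit there (TP63 and CAV1). Each sequence is the 300 bases from 250 before to 50 after a gene start, 5′ to 3′ on the gene's own strand, from RefSeq (GRCh38.p14, another build than the peak list). Capitals mark CG dinucleotides. No position of the peak list was read from these sequences.
EGFR: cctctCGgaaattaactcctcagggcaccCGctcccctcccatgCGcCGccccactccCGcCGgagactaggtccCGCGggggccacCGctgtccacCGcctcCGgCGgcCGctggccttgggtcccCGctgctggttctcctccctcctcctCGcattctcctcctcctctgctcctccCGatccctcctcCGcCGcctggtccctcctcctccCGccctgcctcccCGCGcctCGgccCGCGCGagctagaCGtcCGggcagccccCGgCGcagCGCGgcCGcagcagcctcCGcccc
VIM: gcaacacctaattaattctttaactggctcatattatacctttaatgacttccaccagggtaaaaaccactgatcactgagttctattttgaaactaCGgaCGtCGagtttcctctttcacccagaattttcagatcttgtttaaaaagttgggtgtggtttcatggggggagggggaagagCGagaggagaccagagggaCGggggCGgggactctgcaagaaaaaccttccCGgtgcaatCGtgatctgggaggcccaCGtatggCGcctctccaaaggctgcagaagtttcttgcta
TP63: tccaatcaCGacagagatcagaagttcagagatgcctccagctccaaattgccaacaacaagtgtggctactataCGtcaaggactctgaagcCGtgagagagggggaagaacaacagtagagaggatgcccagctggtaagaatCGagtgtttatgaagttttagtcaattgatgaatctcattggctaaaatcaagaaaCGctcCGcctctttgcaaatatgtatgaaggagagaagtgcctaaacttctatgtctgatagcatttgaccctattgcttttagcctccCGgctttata
CAV1: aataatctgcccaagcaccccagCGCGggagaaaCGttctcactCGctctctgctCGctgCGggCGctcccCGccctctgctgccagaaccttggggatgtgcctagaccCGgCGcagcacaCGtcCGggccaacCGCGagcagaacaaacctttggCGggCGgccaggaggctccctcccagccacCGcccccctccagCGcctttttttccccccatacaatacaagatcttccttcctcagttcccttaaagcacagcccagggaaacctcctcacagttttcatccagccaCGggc
The EGFR sequence holds 33 CG dinucleotides and CAV1 holds 19, against a median of 13 over the 27305 genes with such a sequence. VIM holds 10 and TP63 holds 7, so each pair of genes has 1 count above the median and 1 below it. The sequences end 50 bases after a RefSeq start, whereas summit distances count from starts given to 1 kb. By those, the first listed summit lay 0.594 kb into VIM and 0.193 kb into EGFR, too close to place against the sequences. Whether the counts describe the bases of the listed regions was therefore not determined. FN1 holds 38 and ZEB1 holds 17. The letters GGGCGG or their complement, known as a GC box bound by Sp1, are in 3 places in EGFR, 3 in CAV1 and 1 in VIM, and are not in TP63. They are in 44.5% of all such sequences. The letters CAGGTG or their complement, the E-box form bound by ZEB and SNAI factors, are in none of the 4 sequences shown but once in that of ZEB1, and are in 20.6% of all. TATAAA or its complement is in TP63 only among the 4, and in 12.02% of all. Both strands were searched, and a match is a description of letters only.

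EGFR, a receptor tyrosine kinase of growth factor signalling that is high in basal-like breast cancer, carried most of the summits. It had 61 of the 90 summits (67.8%), in 45 regions over a window of 209 kb. VIM (vimentin, the intermediate filament of mesenchymal cells) had 10 summits, and TWIST1 (a basic helix-loop-helix factor) had 6. ZEB1 (a zinc finger repressor of E-cadherin) and TP63 (the p53 relative of basal epithelium) had 5 each. SNAI2 (Slug, a zinc finger repressor) had 2, FN1 (fibronectin, an extracellular matrix protein) had 1, and CAV1 (caveolin-1, a coat protein of caveolae) had 0. The exact 95% Poisson interval, for counting error only, was 46.7 to 78.4 for EGFR, 4.80 to 18.4 for VIM, 2.20 to 13.1 for TWIST1 and 0.0253 to 5.57 for FN1. EGFR therefore stood apart from the other 7 genes in number. The intervals of VIM, TWIST1, ZEB1, TP63, SNAI2 and FN1 overlapped, so these could not be ordered beyond counting error. Summits of 1 region share reads and are not independent, so the intervals are likely too narrow. These counts are not per length, and the windows ran from 22 kb in TWIST1 to 286 kb in TP63.

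**Figure D1:**
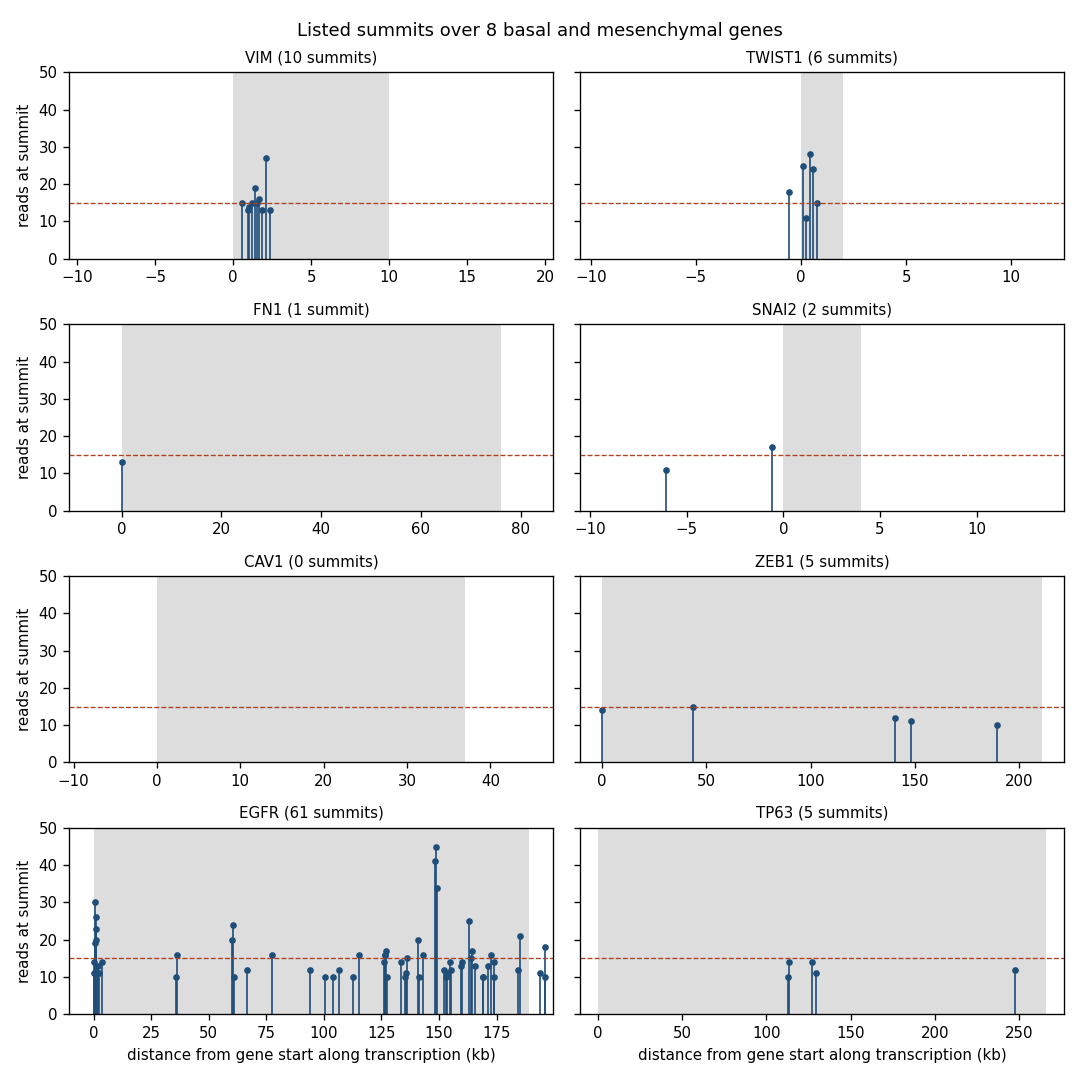
Reads at each listed summit (y axis) against distance from the gene start along transcription in kb (x axis) for the 8 genes. Grey marks the gene, white its 10 kb on each side, and the dashed line the median of 15 reads over all summits. The EGFR panel holds 61 summits, with the highest at 45 reads, whereas CAV1 has none.

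VIM had listed summits only over a short stretch at its start. Its 10 summits lay from 0.594 to 2.36 kb into the gene, and the rest of the gene and both flanks had none. Of these, 8 lay in 1 region of 1255 bp on chromosome 10 (hg19) from 17270923 to 17272177. Reads at the summits of that region were 13, 14, 15, 19, 15, 16, 13 and 27 in order along the gene. The last of these was the highest of VIM, with a fold of 9.31 and a −log10 p of 21.9. It lay 2.13 kb into the gene, and 9.17% of all summits in the list had as many reads or more. The summit nearest to the start, at 17270595, had 15 reads, equal to the median over all summits.

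FN1, which like VIM rises in mesenchymal cells, had its single summit 0.012 kb before the start as given to 1 kb. The region, on chromosome 2 from 216300992 to 216301147, was 156 bp wide and had 13 reads (fold 4.65, −log10 p 7.51). At least as many reads were found in 76.0% of all summits, so this was a weak peak. No summit was listed in the remaining 76 kb of the gene. The gene lies in sparse surroundings, with 0.55 summits per 100 kb in the 1 Mb on each side and 3.49 per 100 kb over chromosome 2.

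CAV1 had no listed summit in its 57 kb window. The nearest lay 313 kb before its start and 111 kb beyond its end, so that an unlisted stretch of 461 kb spanned the gene. CAV2, the neighbouring caveolin gene, lies in the same stretch and also had none.

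EGFR had listed summits both at its start and along its body. At the start a region of 1458 bp on chromosome 7 from 55086152 to 55087609 held 8 summits, of 14, 11, 19, 30, 23, 26, 20 and 11 reads. The 30-read summit had a fold of 10.3 and a −log10 p of 25.4. The highest summit of all 8 genes, however, lay 149 kb into the gene, in a region of 1103 bp from 55234260 to 55235362. Its 3 summits had 41, 45 and 34 reads, with folds of 13.96, 15.3 and 11.6. The 45-read summit had a −log10 p of 44.7, and 1.79% of all summits in the list had as many reads or more. EGFR thus held all 4 summits of 30 reads or more among the 8 genes.

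The body of EGFR was not evenly covered. Between 20 and 110 kb from the start 11 summits were listed, against 39 between 110 and 200 kb, 2 stretches of equal length. The gene ends at 189 kb and the window 10 kb later, and 3 of the 39 lay downstream of the gene. Of the 45 EGFR regions, 37 had a single summit. Most body summits were weak: their median was 14 reads, and 8 of 49 had 20 reads or more, against 4 of 9 at the start. Besides the region at 149 kb, body summits of 20 reads or more were found at 60.2 and 60.4 kb (20 and 24 reads), 140.7 kb (20 reads), 163 kb (25 reads) and 185 kb (21 reads). The longest stretch of the window with no summit was 31.9 kb.

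TWIST1 had the highest median of reads per summit of the 8 genes. All 6 summits lay within 0.755 kb of its start, and 5 of them shared a region of 878 bp on chromosome 7 from 19156189 to 19157066. Their reads were 15, 24, 28, 11 and 25 in order of position, and the sixth, 0.568 kb before the start, had 18. The 28-read summit had a fold of 9.64 and a −log10 p of 23.0. The median was 21 reads, against 15 over all summits. The summit nearest to the start as given to 1 kb had 25 reads and lay 0.104 kb inside the gene. VIM, EGFR and TWIST1 were the only 3 of the 8 genes with a region of 5 or more summits.

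SNAI2 had 2 narrow regions, both before its start as given to 1 kb. The nearer, 0.572 kb before it on chromosome 8 from 49834500 to 49834617, had 17 reads (fold 5.98, −log10 p 11.2), and the other, 6.04 kb before it, had 11. ZEB1 had 1 weak summit at the start and 4 in the body. The start summit lay 0.05 kb before the gene, in 120 bp of chromosome 10 from 31607900 to 31608019, with 14 reads and a fold of 4.99. The body summits, at 43.6, 140.8, 148 and 190 (189.5) kb, had 15, 12, 11 and 10 reads, so the highest of ZEB1 had a fold of 5.32. The last of these is at the lowest value that the list holds.

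TP63 is read from an outer start, which gives the form with the transactivation domain, and from an inner start, which gives the shorter delta N form found in basal cells. Neither had a listed summit within 2 kb. The summit nearest to the outer start lay 75.6 kb before it, outside the window, and the summit nearest to the inner start lay 28.7 kb before that start. All 5 TP63 summits were in the body, at 113 (112.9 and 113.5), 127, 129 and 248 kb, with 10, 14, 14, 11 and 12 reads. The highest fold was 4.99, shared by 2 of them. In both ZEB1 and TP63, therefore, no summit reached 16 reads.

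**Figure D2:**
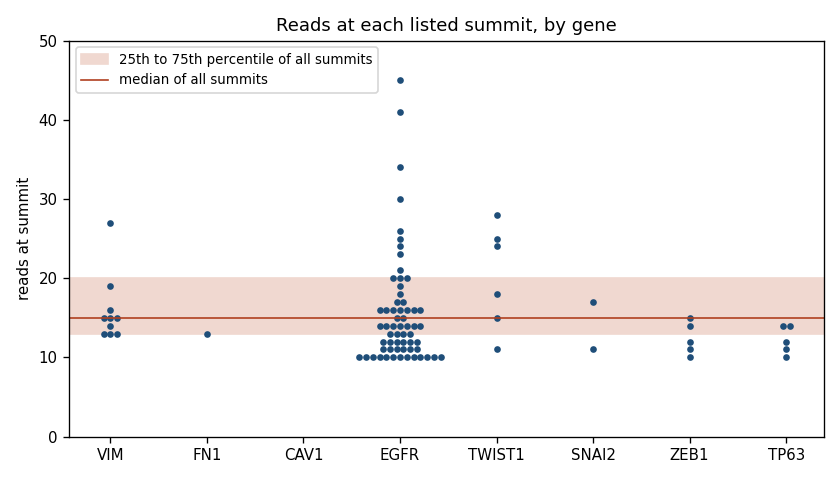
Reads at each listed summit (y axis) by gene, 1 point per summit. The band spans the 25th to 75th percentile of all 371521 summits (13 to 20 reads) and the line is their median of 15. Points above the band are found in VIM, EGFR and TWIST1 only.

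Over the 8 genes the summits had a median of 14 reads and a median fold of 4.99, against 15 reads and 5.32 over the whole list. With 20 reads or more there were 16 of the 90 (17.8%, 95% Wilson interval 11.2 to 26.9%, counting error only), against 26.5% of all summits. They were 12 in EGFR, 3 in TWIST1 and 1 in VIM. At the other end, 33 of the 90 (36.7%) had 10 to 12 reads, against 23.99% of all summits. Regions were also narrow, with a median of 149 bp against 208 bp over all regions, and 53 of 63 (84.1%) had 1 summit, against 71.8%. Summits of 1 region share reads and are not independent, so no test was made of these shares.

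A summit lay within 2 kb of the start in 6 of the 8 genes, and in 13.1% of all 4 kb tiles of chromosomes 1 to 22 and X. These tiles are not gene starts, so they give only the general level of the list. With 20 reads or more required, EGFR (30 reads) and TWIST1 (28 reads) were left, 2 of 8, against 4.53% of tiles. VIM had a 27-read summit 2.13 kb into the gene, just beyond the 2 kb limit. Starts are given to 1 kb, so whether VIM counts here depends on that limit. The highest start summit had 19 reads in VIM, 17 in SNAI2, 14 in ZEB1 and 13 in FN1.

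The density of summits was set beside that of the surrounding sequence, since the list varies widely along chromosomes. TWIST1 had 27.3 summits per 100 kb against 0.85 in the 1 Mb on each side, 32.1 times as many. VIM had 33.3 against 2.85, or 11.7 times. EGFR had 29.2 against 17.1, FN1 1.04 against 0.55 and ZEB1 2.16 against 1.65, ratios of 1.71, 1.89 and 1.31. SNAI2 (8.33 against 10.6) and TP63 (1.75 against 5.35) were sparser than their surroundings, at 0.786 and 0.327 times, as was CAV1 (0 against 0.35). Thus 5 of 8 genes were denser than their surroundings, and 3 of 8 were denser than their own chromosome. For the 8 windows together the density was 9.42 per 100 kb against 4.91 in the surroundings and 12.4 over the whole list. The ratio to the surroundings, 1.92 (95% interval 1.54 to 2.38 from the Wilson interval of the share, counting error only), rested largely on EGFR and was 1.23 without it. With 5 Mb on each side as the surroundings it turned round to 0.933.

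**Figure D3:**
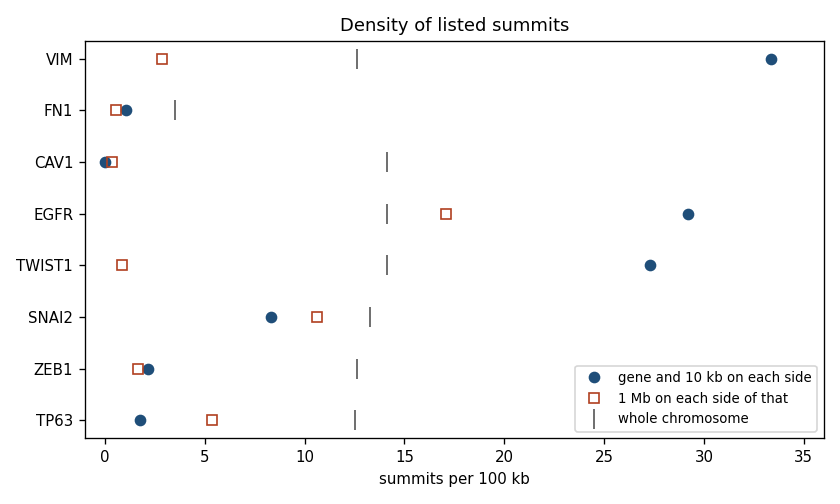
Summits per 100 kb (x axis) for each gene with 10 kb on each side (filled circles), for the 1 Mb on each side of that (open squares) and for the whole chromosome (ticks). VIM at 33.3, EGFR at 29.2 and TWIST1 at 27.3 lie right of their chromosome, and the other 5 genes lie left of it.

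The 8 genes were compared with 26 other basal or mesenchymal genes and 17 luminal epithelial genes, looked up in the same way. A start summit was listed in 6 of 8 genes (75.0%), in 22 of 26 other basal or mesenchymal genes (84.6%) and in 15 of 17 luminal genes (88.2%). Listed peaks at the start were therefore common in all 3 sets, those of the luminal genes that define the labelled cell line included. Start summits of 20 reads or more were found in 2 of 8, 12 of 26 and 13 of 17 genes. VIM is not among the 2, as its 27-read summit lay just beyond 2 kb. Among genes with a start summit, the highest one had a median of 18 reads in the 8 genes (13 to 30), 20.5 in the other basal or mesenchymal genes (10 to 45) and 26 in the luminal genes (15 to 50). The ranges overlap throughout. Over all genes, those without a start summit included, the median number of start summits was 1, 4.5 and 8.

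**Figure D4:**
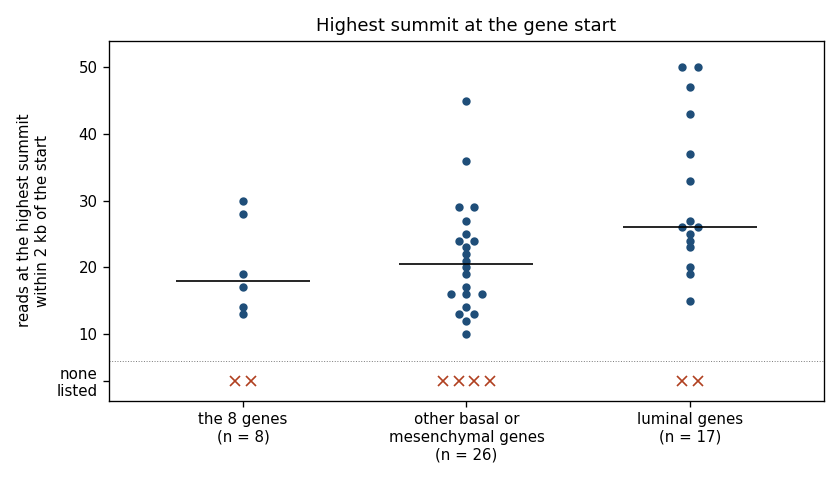
Reads at the highest summit within 2 kb of the gene start (y axis), 1 point per gene, for the 8 genes, 26 other basal or mesenchymal genes and 17 luminal genes. Horizontal lines are medians over genes with a summit (18, 20.5 and 26 reads), and crosses are genes with none listed.

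Among luminal genes, ERBB3 (a receptor of the EGFR family) and ESRP1 (an epithelial splicing regulator) reached 50 reads at the start, KRT18 (a luminal keratin) 47 and MUC1 (a mucin of the luminal surface) 43. GATA3 and FOXA1, transcription factors of luminal identity, reached 26 each, with 12 and 8 start summits. The luminal genes with the lowest start maxima were TFF1 with 15 reads, EPCAM with 19 and SPDEF with 20. The 30 reads of EGFR compare with 33 at CDH1 (E-cadherin, which ZEB1, SNAI2 and TWIST1 repress). ESR1, the oestrogen receptor gene, and AGR2 had none at the start, where the ESR1 start used is its outermost one. Among the other basal or mesenchymal genes, COL1A1 (a collagen chain) reached 45 and FOXC1 (a factor of basal-like cancers) 36. Of the basal keratin genes, KRT14 reached 29, KRT5 24, KRT17 23 and KRT6A 13. Among paralogues, SNAI2 had 1 start summit of 17 reads, against 5 of up to 21 in SNAI1. TWIST1 reached 28 reads at the start, against 13 in TWIST2, but over the whole window 28 compares with 45 in TWIST2. ZEB1 had 5 summits in its window, whereas ZEB2 had none, as was so for COL1A2 and CAV2.

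The share of summits of 20 reads or more was 17.8% in the windows of the 8 genes, 29.1% in those of the other basal or mesenchymal genes (95% Wilson interval 25.5 to 32.8%) and 30.9% in those of the luminal genes (26.99 to 35.1%). In the other basal or mesenchymal genes 119 of the 172 such summits lay in ITGB4 and COL1A1, both on chromosome 17, and the remaining 24 genes had 53 of 318 (16.7%). Without the 2 genes with the most such summits the share was 4.35% in the 8 genes (1 of 23, without EGFR and TWIST1) and 29.4% in the luminal genes. The removed genes were picked by that same count and were 2 of 8 against 2 of 17 genes, so these 2 shares are not a like comparison. Median density was 5.25 summits per 100 kb in the 8 genes, 17.2 in the other basal or mesenchymal genes and 81.8 in the luminal genes. With no distance added to the genes it was 1.89, 19.02 and 20, so the gap between the other basal or mesenchymal genes and the luminal genes was seen with the added 10 kb and not in the genes alone, and with each region counted once it was 5.25, 15.6 and 31.8. Relative to the 1 Mb on each side, however, the medians were 1.51, 1.27 and 1.56 times, and 5 of 8, 15 of 26 and 12 of 17 genes were denser than their surroundings. These ratios lay closer together than the densities did. Windows ran from 22 kb in TWIST1 to 286 kb in TP63 among the 8 genes, and from 25 kb in MUC1 to 493 kb in ESR1 among the luminal genes. Where summits cluster at the start, a density per 100 kb is lower in a longer window. The part of gene length, copy number, gene density or chromosome in these values was not tested.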

How the data were processed

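Per the submitters' processing notes, the ATAC-seq reads of the 4 samples were mapped to hg19 (Bowtie 1.1.2 is named) and MACS2 was the peak caller. Its options, duplicate handling and pooling are not stated there. For each summit the deposited list gives a fold enrichment (a ratio of signal to background) and a −log10 p, both made by the authors, and a deposited score. The score and the q column were not used. Region starts and ends were converted to positions counted from 1.

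Reads at a summit were recovered from the fold, taken as (reads + 1) / (background + 1), and the Poisson −log10 p. All 156 distinct pairs with −log10 p under 250 gave 1 background of 2.01 reads. The solver was tested on simulated data of 500 pairs and recovered all of them. No source used here gives the depth per sample. Members, gene lists and tests were chosen with earlier results of these data known. All 8 members are named, with their highest summit and the one nearest to the start. Of the comparison lists, examples were chosen after their values were seen.

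Positions of the comparison genes, and the inner start of TP63, are hg19 positions from general knowledge to 1 kb. Against the RefSeq gene table (GRCh38.p14), all 51 genes lay on the stated chromosome, 28 with a promoter entry had the stated strand, and 40 had a length within 2 kb. Of the 8 genes, 5 were within 2 kb. The others were TP63 (266 kb here, 300.5 kb in that table), EGFR (189 and 192.6 kb) and TWIST1 (2 and 4.59 kb). The promoter table matched 6 of the 8 genes. For genes with several entries the outermost start was used. Without values per sample, differential testing could not be done. Python 3.11.15, numpy 2.4.6, scipy 1.17.1, pandas 2.3.3 and matplotlib 3.10.9 were used.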

Additional observations from a re-analysis of the deposited data

How the results depend on the processing

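The number of summits (90) was 82 with no added distance, 133 with 50 kb, and 63 both with each region counted once and with regions that overlap the window. It was 16 at 20 reads or more and 38 in the 50% with the highest fold, both by construction, and 29 without EGFR. The density ratio to the surroundings (1.92) was 1.68 with 500 kb, 1.92 per region and 1.72 at 20 reads or more, and reversed to 0.933 with 5 Mb. It was 2.62 without TP63, 1.23 without EGFR and 3.39 without TP63 and ZEB1, and ran from 1.64 to 2.31 without 1 of the other 6 genes. Genes with a start summit stayed at 6 within 1 and 5 kb and by region overlap, and were 2 at 20 reads or more within 2 kb. The share of summits of 20 reads or more (17.8%) was 42.2% at 15 reads, against 58.1% of all summits, 4.44% at 30 reads, against 6.22%, 12.7% per region, against 21.9% of all regions, and 13.8% without EGFR. It stayed below the share over all summits or regions wherever that was computed. Median density per 100 kb with no added distance was 1.89 in the 8 genes, 19.02 in the other basal or mesenchymal genes and 20 in the luminal genes (5.25, 17.2 and 81.8 as reported), and per region 5.25, 15.6 and 31.8. Without chromosome 17 it was 11.4 in the other basal or mesenchymal genes and 48.4 in the luminal genes. The share of summits of 20 reads or more in the other basal or mesenchymal genes (29.1%) was 16.7% without ITGB4 and COL1A1. Their start counts stayed within 1.5 times. The alternatives without EGFR for the count and the share, those without the 2 genes with the most summits of 20 reads or more, and the 1 and 5 kb distances for the comparison lists, were chosen after the data were seen. Apart from what follows by construction, the cause was not tested. No paired analysis was possible because samples have no values of their own in the list, and no replicate could be left out. The minimum of 10 reads over a background of 2.01 limits what a missing summit shows.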
